A study of Homo sapiens with 7 samples.

Results

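PAX2, PAX8, LHX1, HNF4A, WT1, EMX2, OSR1 and GATA3 are transcription factors that lay out the kidney and mark its cell types. Every non-control probe carrying the name of one of these genes was taken, which gave 9 probes for the 8 genes out of 42405 probes with 34809 gene names on the array. PAX2 had 2 probes and each of the other genes had 1 probe. PAX2 (by 1 of its 2 probes), PAX8 and LHX1 were read on all 7 arrays well above background. No difference between HOTAIR-overexpressing and control cells passed the test for them. HNF4A, WT1 and EMX2 were on no array well above background. OSR1 was so on 2 control arrays and 1 HOTAIR array, and GATA3 on 1 HOTAIR array, by 1 of its 2 spots.

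The samples were ACHN cells, a human renal cell adenocarcinoma line, infected with a pBabe-hygro retrovirus carrying HOTAIR cDNA (HOTAIR 1 to HOTAIR 3) or with the empty vector (EV 1 to EV 4), so both groups carry the vector. HOTAIR is a long noncoding RNA transcribed from the HOXC cluster. Total RNA of each sample was hybridised to 1 single-colour Agilent array, and all 7 arrays lay on 1 slide, EV in its upper and HOTAIR in its lower row, so that group and slide row cannot be told apart. The labels do not say whether the samples of a group came from separate cultures, so p-values measure the spread between these samples only, which may be technical, and the study does not state whether the infected cells were a pool or a clone.

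In the embryo, OSR1 marks the intermediate mesoderm from which the kidney arises, and PAX2, PAX8 and LHX1 then specify the nephric duct. GATA3 and EMX2 act in the duct and the ureteric bud that grows from it, and WT1 acts in the mesenchyme that the bud induces and later in podocytes. HNF4A is a nuclear receptor that drives the genes of the proximal tubule, the segment to which many renal carcinomas are traced, and PAX2 and PAX8 are used by pathologists as markers of renal origin.

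Values are log2 intensities relative to the array's 75th percentile, so that 0 is the intensity at that percentile of the non-control spots, and a probe's values can be compared between arrays but not with those of another probe. A spot counted as well above background by the call of the scanner software. Levels are total RNA of a culture, in which fewer cells of a type and less RNA per cell cannot be told apart. The HOTAIR probe, as a check of the labels, lay between -7.07 and -6.29 on the EV arrays, where it was never well above background. It lay between -3.24 and -2.58 on the HOTAIR arrays, where it always was. Because it was tested only through the HOTAIR arrays, where it was high, no p-value is used for this check. Of the epithelial and renal markers, 10 of 15 were tested, the brightest being KRT18 and VIM, and CDH1, CUBN, AQP1, CA9 and ANPEP were not. None passed (0 by limma), and 2 of the 10 tested (20%) had an unadjusted p under 0.05, against 6.11% of all gene names tested. No conclusion is drawn from this share. KRT19 at -0.41 (adjusted p = 0.602 by limma) and EPCAM at -0.23 (adjusted p = 0.881 by limma) were lower on every HOTAIR array than on any EV array. So was CDH16, described with the PAX targets. Over all tested probes the groups did not overlap, in either direction, for 7.70%. LRP2 and MME differed by 0.53 and 0.45 with overlap. Of 17 markers of immune, endothelial, stromal, podocyte and urothelial cells, 3 were tested (CD14, ACTA2 and DES) and 0 passed. The first principal component over the tested probes held 51.8% of the variance. EV 2 stood apart from the other arrays on it, with a score of 74.0 against -29.4 to 21.1, the upper end being HOTAIR 3. Correlations between arrays of a group were 0.971 to 0.995, and no spot was saturated.

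Which probe reads a gene decides what is seen of it, so the targets are given first, on hg19. The annotation used here gives a position in a transcript but no boundary of exon, coding sequence or UTR. The PAX2 probes lie at chr10:102589603-102589662, at base 4041 of its transcript, and at chr10:102568921-102568980, at base 1465, both on the plus strand and 20682 bases apart in the genome. Each is listed for 4 RefSeq transcripts, of which 3 are shared. The PAX8 probe lies at chr2:113973575-113973634 on the minus strand, at base 3994 of its transcript. The farther PAX2 probe and the PAX8 probe both hold AATAAA, the letters of the usual polyadenylation signal, which is found in 6.98% of the probes on the array and, as TTTATT on the opposite strand, in 3.72%. The stretches that end in it are shown, with the signal in capitals, because these are the probes that gave the PAX signals:
PAX2, 3′ probe, bases 30 to 59: tctttttcttttgtgcacataagaAATAAA
PAX8, bases 2 to 31: gcagaccctttccaactcacaaccAATAAA

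The other PAX2 probe and the HNF4A probe are shown whole, because neither was well above background on any of the 7 arrays. The HNF4A probe is at base 309 of its transcript and has no genome position in the annotation used here.
PAX2, other probe: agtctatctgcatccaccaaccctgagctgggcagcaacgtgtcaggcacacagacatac
HNF4A: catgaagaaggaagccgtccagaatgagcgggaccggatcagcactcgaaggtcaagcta

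The LHX1 probe lies at chr17:35300424-35300483 on the plus strand and the WT1 probe at chr11:32410332-32410391 on the minus strand. The EMX2 probe lies at chr10:119308881-119308940 and the GATA3 probe at chr10:8117072-8117131, both on the plus strand, and the OSR1 probe at chr2:19551637-19551696 on the minus strand.

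**Figure D1:**
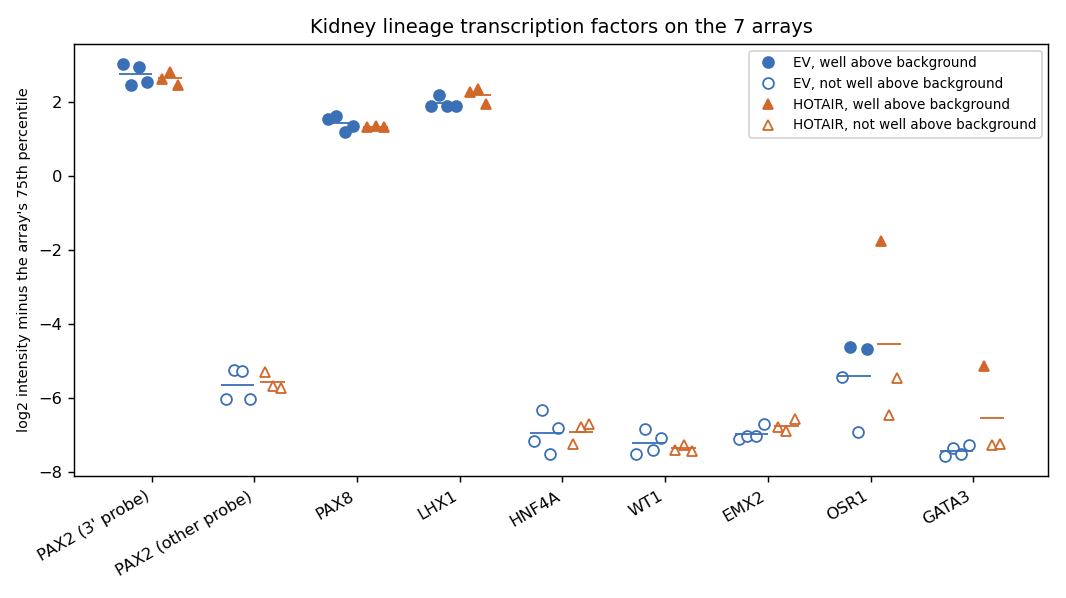
Log2 intensity relative to the 75th percentile of the array (y axis) of the 9 probes of the 8 genes (x axis) on the EV arrays (circles) and HOTAIR arrays (triangles), with group means as lines. Filled symbols are well above background, and open symbols can be values of the software's error model, which have no order. PAX8, LHX1 and the 3′ probe of PAX2 are filled on all 7 arrays, and OSR1 and GATA3 each have 1 high HOTAIR point, on HOTAIR 1.

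PAX2 was clearly read by its 3′ probe in both groups, at levels that overlapped. PAX2 is a paired-box factor needed for the nephric duct and ureteric bud. Its 3′ probe read 3.04, 2.47, 2.96 and 2.55 on EV 1 to EV 4, and 2.64, 2.81 and 2.47 on HOTAIR 1 to HOTAIR 3. EV 1 and EV 3 were above every HOTAIR array, while EV 2 and EV 4 lay within the span of the HOTAIR arrays. The group means were 2.76 ± 0.29 (SD, n = 4) for EV and 2.64 ± 0.17 (SD, n = 3) for HOTAIR. The difference was -0.12 (SE 0.18, 95% interval -0.53 to 0.30) on the log2 scale, a fold of 0.923 with an interval of 0.692 to 1.23, and did not pass the test (limma, adjusted p = 0.993, exact permutation p = 0.571, two-sided). The probe was printed at 2 spots per array, which differed by up to 0.26, less than the 0.57 that separated the EV arrays. Its SD over the EV arrays was larger than that of 62.2% of the 20419 tested probes.

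The other PAX2 probe gave no reading of the gene. On none of the 7 arrays was it well above background, at -6.02, -5.25, -5.26 and -6.02 on the EV arrays and -5.30, -5.67 and -5.72 on the HOTAIR arrays. None of its 7 spot values had been replaced by the error model. The groups overlapped here too, and the probe was not tested.

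PAX8, the paired-box factor that shares duct specification with PAX2 and also acts in the thyroid, was read on every array and varied little among the HOTAIR samples. Its probe read 1.54, 1.62, 1.20 and 1.36 on EV 1 to EV 4, and 1.32, 1.35 and 1.33 on HOTAIR 1 to HOTAIR 3. The HOTAIR arrays spanned 0.028 and all lay inside the span of the EV arrays, which was 0.42. The means were 1.43 ± 0.19 (SD, n = 4) for EV and 1.33 ± 0.015 (SD, n = 3) for HOTAIR. The difference of -0.096 (SE 0.13, 95% interval -0.39 to 0.20), a fold of 0.936, did not pass the test (limma, adjusted p = 0.993, exact permutation p = 0.371). The largest gap between its 2 spots on an array was 0.12, wider than the whole span of the HOTAIR arrays.

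LHX1, a LIM-homeobox factor required for the nephric duct and for patterning of the early nephron, had the only positive difference of the tested members. It read 1.90, 2.19, 1.89 and 1.89 on EV 1 to EV 4, and 2.28, 2.36 and 1.96 on HOTAIR 1 to HOTAIR 3. HOTAIR 1 and HOTAIR 2 lay above every EV array, and HOTAIR 3 lay below EV 2 and above the remaining EV arrays. The means were 1.97 ± 0.15 (SD, n = 4) and 2.20 ± 0.21 (SD, n = 3). The difference was 0.23 (SE 0.14, 95% interval -0.096 to 0.56), a fold of 1.18 with an interval of 0.936 to 1.48, and did not pass the test (limma, adjusted p = 0.946, exact permutation p = 0.171). Its size exceeded that of 75.8% of all tested probes. The 2 arrays that kept the LHX1 groups from separating, EV 2 and HOTAIR 3, are those with the highest scores on the first principal component. Without both, a choice made after seeing the data, the difference was 0.43 (SE 0.098) with limma's adjusted p = 0.323, and since these are the arrays that made the groups overlap, a larger difference follows from leaving them out. The spots of EV 4 differed by 0.43, as large as that difference, against a median gap of 0.052 over the arrays.

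**Figure D2:**
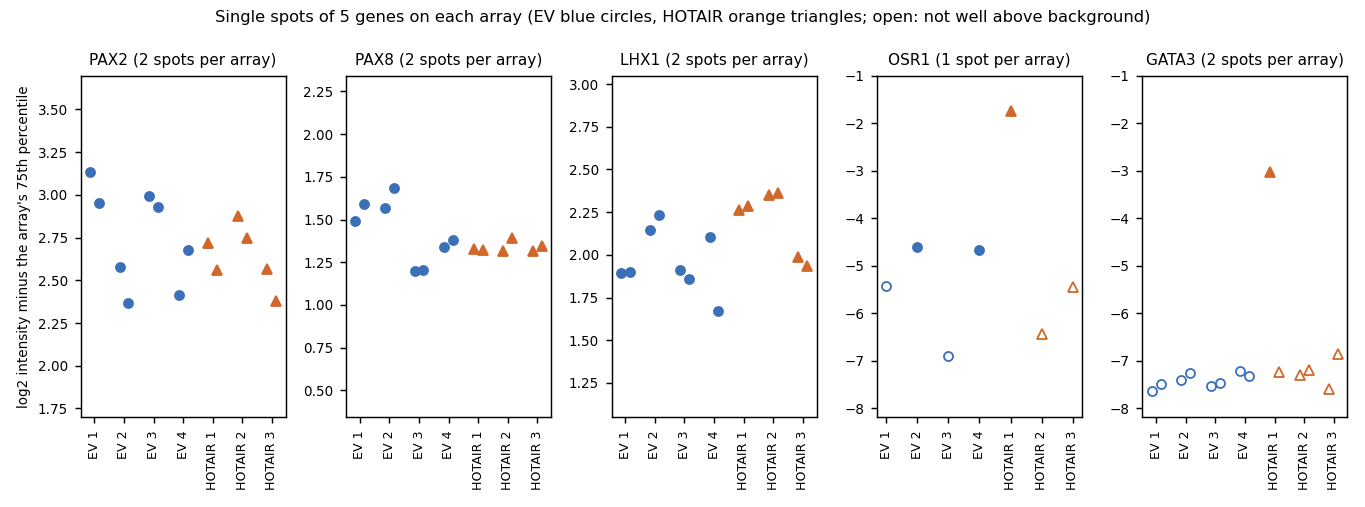
Log2 intensity relative to the array's 75th percentile (y axis, range set for each gene) of every single spot of PAX2 (3′ probe), PAX8, LHX1, OSR1 and GATA3 on each array (x axis), EV as circles and HOTAIR as triangles, open where the spot was not well above background. Both spots of LHX1 are high on HOTAIR 1 and HOTAIR 2, while on HOTAIR 1 GATA3 is high in 1 spot, at -3.02, and low in the other, at -7.24.

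Of the 3 members tested, 0 passed an adjusted p of 0.05 by limma and 0 passed by the rank product. By limma 0 had an unadjusted p under 0.05 (5.85% of all tested probes had one). The Mann-Whitney U test could pass no probe, because its smallest exact p with these arrays is 0.0571. Over all tested probes, 34 of 20419 passed by limma, or 0.167%, of which 27 (0.132% of the tested probes) were higher and 7 (0.0343%) lower in HOTAIR. At that background a count of 0 among 3 members is not set apart from the rest of the array. The smallest p that the exact permutation test can give with 4 against 3 arrays is 0.0286. The 95% intervals bound the differences of the members: PAX2 and PAX8 could have fallen to 0.692 and 0.761 of the EV level or risen to 1.23 and 1.15 times it, and LHX1 could have risen to 1.48 times it.

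**Figure D3:**
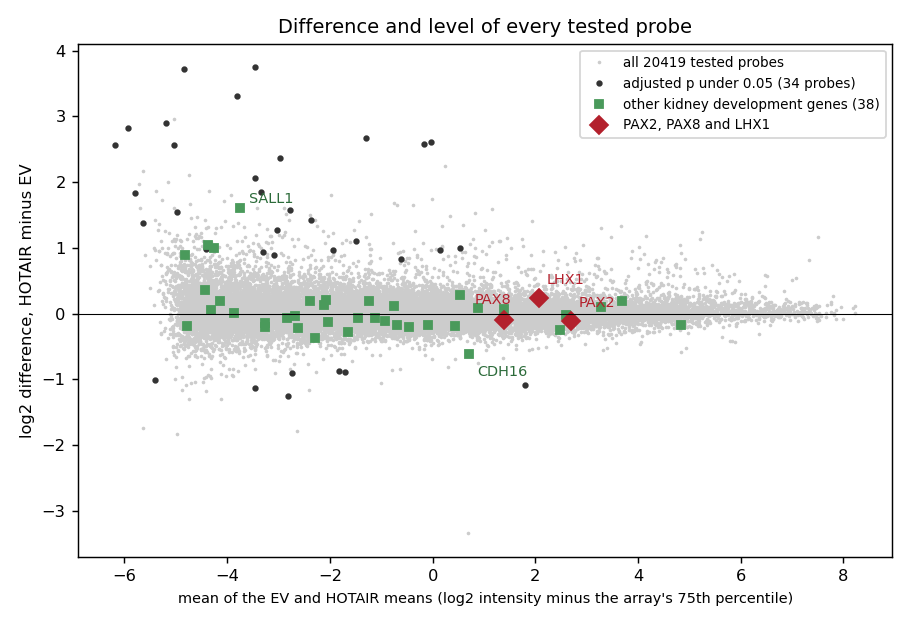
Log2 difference between HOTAIR and EV (y axis) against the mean of the group means (x axis, log2 relative to the array's 75th percentile) for the 20419 tested probes (grey), with the 34 probes past an adjusted p of 0.05 in black, PAX2, PAX8 and LHX1 as red diamonds and the 38 other tested kidney development genes as green squares. The red diamonds lie within the grey cloud, at -0.12, -0.096 and 0.23, and SALL1 is the highest green square, at 1.60.

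HNF4A, WT1 and EMX2 gave no reading well above background in either group. The HNF4A probe was between -7.49 and -6.32 on the EV arrays and between -7.24 and -6.69 on the HOTAIR arrays, and 5 of its 14 spot values were replaced by the error model. WT1, a zinc-finger factor of nephron progenitors and podocytes, was printed at 10 spots per array and lay between -7.51 and -6.84, and 57 of the 70 spot values were replaced. EMX2, a homeobox factor of the ureteric bud, had 5 of 14 values replaced and lay between -7.09 and -6.57. A probe of this kind gives only an upper bound on its level, so no fold is given for these genes and no order of their arrays is drawn.

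OSR1, a zinc-finger factor of the intermediate mesoderm, was read on some arrays of each group. Its single spot was well above background on EV 2, EV 4 and HOTAIR 1, which left it out of the test. It read -5.43, -4.60, -6.90 and -4.68 on EV 1 to EV 4, and -1.75, -6.44 and -5.44 on HOTAIR 1 to HOTAIR 3. HOTAIR 1 lay far above the other arrays, with an intensity of 190 against 4.77 to 21.8 on the other 6, and the other HOTAIR arrays lay inside the span of the EV arrays. Of the 37 spots around the OSR1 spot, 13 (35.1%) were highest on HOTAIR 1, against 14.3% of all spots, and the part of this in the OSR1 value was not tested. The HOTAIR mean was -4.54 with HOTAIR 1 and -5.94 without it, against -5.40 for EV, so 1 spot decided the direction.

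GATA3, a zinc-finger factor of the nephric duct and collecting duct, was also high on HOTAIR 1 alone. Its 2 spots there had intensities of 79.0 and 4.23, a disagreement within 1 array, while the spots of the other arrays lay between 2.90 and 4.84. Around the bright spot 10 of 42 spots (23.8%) were highest on HOTAIR 1, and around the dim spot 8 of 43 (18.6%), against 14.3% of all spots. The part of this in the bright value was not tested. Of the 14 spot values, 12 were replaced by the error model and 1, the bright spot, was well above background. The remaining arrays have no order, and no difference between the groups is given.

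The genes known to be regulated by these factors were read to different extents. Of the HNF4A targets on the array, 10 of 14 were on no array well above background. SERPINA1, which encodes the protease inhibitor alpha-1-antitrypsin, was the only one tested (0.18, adjusted p = 0.993 by limma). Of the WT1 targets only 2 of 11 were well above background on no array, 7 were tested and 0 passed, with differences of -0.21 and -0.18 for PDGFA and BCL2 at the low end and of 0.12 and 0.28 for AREG and SYNPO, an actin-binding protein of podocytes, at the high end. PODXL, the podocyte surface sialomucin, was the brightest of them and read 2.56 to 2.66 on the EV arrays and 2.52 to 2.71 on the HOTAIR arrays. Of the GATA3 targets and partners 7 of 11 were well above background on no array, 3 were tested and 0 passed, and CCND1, FOXA1 and TFF1 differed by 0.080, 0.19 and 0.36.

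Targets of PAX2 and PAX8 included genes whose groups did not overlap although none passed the test. CDH16, the kidney-specific cadherin, read 1.02, 1.21, 0.69 and 1.13 on the EV arrays and 0.58, 0.55 and 0.071 on the HOTAIR arrays. Every HOTAIR array was below every EV array, as was so in either direction for 7.70% of all tested probes. The difference was -0.62 (SE 0.18), with limma's adjusted p = 0.531. TG, which encodes thyroglobulin and is controlled by PAX8 in the thyroid, was dim and differed by 0.89 (SE 0.28, adjusted p = 0.625 by limma), or by 0.21 with normexp background correction and an offset of 50. Only 3 of 4 EV arrays called it well above background, and it entered the test through the HOTAIR arrays, where it was higher. BCL2, the inhibitor of apoptosis, differed by -0.18 (adjusted p = 0.939 by limma), again with no overlap. Of the 10 genes in the list, 3 were tested and 6 were well above background on no array.

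Of 40 other transcription factors of the developing kidney or its epithelium, 19 were tested, 0 passed, and 18 were well above background on no array. SALL1, the zinc-finger factor of nephron progenitors, had the largest difference of them. It read -4.72, -4.50, -4.97 and -4.02 on EV 1 to EV 4, and -3.07, -3.04 and -2.74 on HOTAIR 1 to HOTAIR 3, with no overlap, although all of these are low intensities. The difference was 1.60 (SE 0.23) with limma's adjusted p = 0.0678, short of the threshold. It passed by the rank product (proportion of false positives 0.010). It also passed by limma without EV 4 (1.78, adjusted p = 0.047) and with the deposited value table (1.65, adjusted p = 0.0293). That table was used without scaling between arrays, and the median difference over all tested probes was then 0.056, against 0.013 in the main fit. SALL1 differed by 0.63 (adjusted p = 0.301 by limma) with normexp background correction and an offset of 50, which draws the differences of dim probes toward 0. TFCP2L1, a factor of the distal nephron and collecting duct, and SOX9, a factor of the ureteric tip and of tubule repair, were also dim and differed by 1.05 (adjusted p = 0.668) and 1.00 (adjusted p = 0.785), or by 0.25 and 0.28 with normexp and that offset, and their groups overlapped. Only 2 of 4 EV arrays called TFCP2L1 well above background, and it entered the test through the HOTAIR arrays, where it was higher.

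Toward the other end of that list was MEIS2, a homeobox factor, at -0.27 (adjusted p = 0.961 by limma). FOXD1, a factor of the renal stroma and the brightest of the list, read 2.41 to 2.88 on the EV and 2.30 to 2.43 on the HOTAIR arrays. Of 20 signals of kidney induction 7 were tested and 0 passed. Among these GFRA1, the co-receptor of the ureteric bud growth factor GDNF, and LFNG, which modifies Notch receptors, were the brightest and differed by -0.17 and 0.19, ETV4 by 0.19 and SPRY1, an inhibitor of growth factor signalling, by -0.15.

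Taking each of these genes once, 98 of 99 were on the array, 38 were tested, 49 were well above background on no array, and 0 passed. There were 5 with an unadjusted p under 0.05 by limma, or 13.2%, against 6.11% of all gene names tested, which passed the same filter. Of the 5, TFCP2L1 and TG were tested only because of the HOTAIR arrays, where they were higher. The lists were chosen with earlier results of these data known, so no conclusion is drawn from these shares. The median difference was -0.025, against 0.011 over the 16664 gene names tested, with 18 genes above 0 and 20 below.

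**Figure D4:**
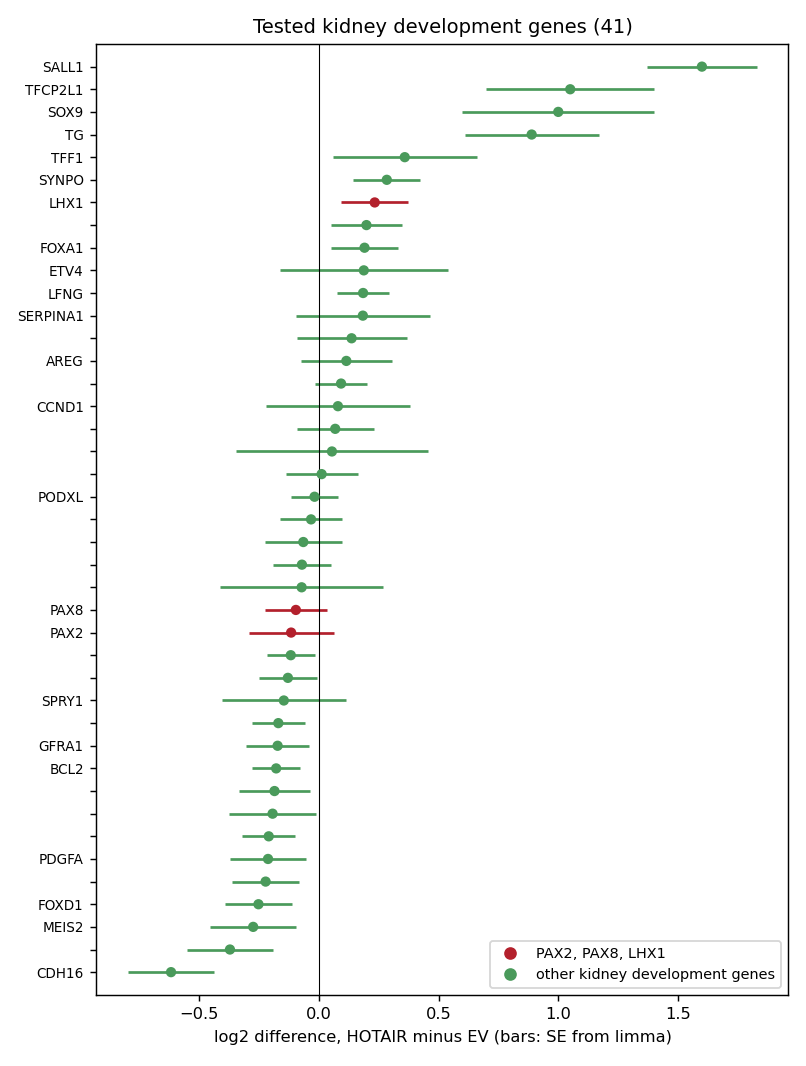
Log2 difference between HOTAIR and EV (x axis) with its SE from limma (bars) for the tested kidney development genes (y axis, sorted), PAX2, PAX8 and LHX1 in red and the 38 others in green, with names for the genes described in the text. The members lie in the middle and upper part of the order at -0.12, -0.096 and 0.23, while SALL1, at 1.60, and CDH16, at -0.62, lie at the ends.

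Transcripts near the members were read by 31 probes within 100 kb, of which 12 were tested and 0 passed. The antisense transcript PAX8-AS1, named LOC654433 on the array, read -4.77 to -4.05 on the EV arrays and -5.24 to -4.42 on the HOTAIR arrays (difference -0.34, limma, adjusted p = 0.971), and was well above background on 4 of 4 and 2 of 3 of them, so that it was tested through the EV arrays. The WT1 antisense transcript WT1-AS, named WIT1 there, was well above background on HOTAIR 2 alone, at -4.28, and those of EMX2 (EMX2OS) and GATA3 (GATA3-AS1) on no array. Of the 12 antisense or neighbouring names searched, 6 were on the array, 2 were tested and 0 passed.

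A noncoding transcript 72266 bases before the nearer PAX2 probe separated the arrays in another way than by group. Its plus-strand probe read -0.59, 1.45, -0.089 and 0.63 on EV 1 to EV 4, and -0.88, -0.64 and 1.20 on HOTAIR 1 to HOTAIR 3. It was highest on EV 2 and HOTAIR 3, the arrays where the 3′ probe of PAX2 read lowest, and the difference between the groups was -0.46 (limma, adjusted p = 0.993). These 2 arrays also scored highest on the first principal component, and the part of that component in the pattern was not tested.

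The tested members showed no strong relation to each other over the 7 arrays, which share 1 slide and the 2 groups. Pearson's r was -0.17 between PAX2 and PAX8, -0.22 between PAX2 and LHX1 and 0.14 between PAX8 and LHX1, and -0.12 to 0.24 without EV 2. The genes whose values followed PAX2 most closely were ZNF668, SNHG7 and PLCB4, with r of 0.984 to 0.988. Those for PAX8 were TMEM222, C15orf29 and HSPA13, with r of 0.980 to 0.990. For LHX1 the closest was CDH2, N-cadherin, with r of 0.978, followed by C16orf57 at 0.948. These are the highest of 20419 probes over 7 arrays of 1 slide, and r exceeded 0.9 for 238, 47 and 12 probes with PAX2, PAX8 and LHX1. They are given as a description only. CDH2 read 2.93, 3.14, 2.94 and 2.90 on the EV arrays and 3.14, 3.28 and 3.00 on the HOTAIR arrays, so it had the high EV 2 and the low HOTAIR 3 of LHX1.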

How the data were processed

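RNA of 7 ACHN samples was hybridised to single-colour Agilent SurePrint G3 arrays, 1 per sample, and groups and sample numbers follow the titles. The authors extracted the images with Agilent Feature Extraction 10.7.3.1, per the submitters' processing notes, and deposited for each spot a processed intensity, background-subtracted and with low values replaced by the software's error model. A value table of the same processed intensity, also deposited, served as an alternative and was used without scaling between arrays. Annotation is on hg19, and the RefSeq table of GRCh38.p14 was used for names only.

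With R 4.3.3 and limma 3.58.1, log2 values of the deposited intensity were taken, the 75th percentile over 58717 non-control spots was subtracted, outlier spots were left out and spots of a probe averaged. A probe was tested if all arrays of EV, or all of HOTAIR, called it well above background (20419 probes) by lmFit and eBayes with Benjamini-Hochberg adjustment, at an adjusted p of 0.05. Where a gene had several tested probes the brightest stood for it. Single genes were also tested by a two-sided exact permutation test over 35 splits. The rank product used 12 comparisons of arrays and 100 permutations. Scripts were tested on simulated data. The number of arrays limits the precision.

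The members and lists were chosen with earlier results of these data known. The text names all member probes, list genes past the threshold, the 2 tested genes with the highest and lowest difference and the 2 brightest of a list, and for tested members the 3 genes with the highest r, except some genes that are not reported here. SOX9, EPCAM and the probes near the members were chosen for naming after their values were seen. Deviations of same-numbered arrays from their group means correlated at 0.386, -0.368 and -0.406. The main fit used no pairing by sample number, and these correlations cannot exclude one.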

Additional observations from a re-analysis of the deposited data

Results flagged for a closer look

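The EV arrays of LHX1 held 1 value far from the others. EV 2 read 2.19, while EV 1, EV 3 and EV 4 lay between 1.89 and 1.90, so that EV 2 was separated from its neighbour by 0.962 of the range of the group, above Dixon's 95% critical value for 4 arrays. Of the 10 genes examined in this way (PAX2, PAX8, LHX1, OSR1, GATA3, SALL1, TFCP2L1, SOX9, CDH16 and TG), LHX1 alone was past that value. By chance about 1 in 20 such groups lies past it, so 1 among 10 is not set apart from chance. SALL1, TFCP2L1, SOX9, CDH16 and TG were included because limma's unadjusted p was under 0.05. The LHX1 spots of EV 2 read 2.15 and 2.23, and those of EV 4 read 2.11 and 1.67. Without EV 2 the difference between HOTAIR and EV was 0.31 in place of 0.23, and limma's adjusted p was 0.672 in place of 0.946. EV 2 also had the highest score of the 7 arrays on the first principal component, and its part in the LHX1 value was not tested.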

How the results depend on the processing

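No member that entered the fit passed under any of the 20 alternatives with a test. Of these, the Mann-Whitney U test could pass no probe, and leaving out EV 2 and HOTAIR 3 together was chosen after seeing the data. The differences of PAX2, PAX8 and LHX1 had the same sign in all of them. Leaving out arrays in turn gave -0.21 to -0.020 for PAX2, -0.17 to -0.031 for PAX8 and 0.15 to 0.35 for LHX1. The number of probes passing over the whole array, 34, became 12 with normexp background correction (offset 50), 14 with no filter on dim probes, 22 when a probe had to be called on all 7 arrays, 20 with trended and robust moderation, 85 by the rank product and 0 by the Mann-Whitney U test, whose smallest exact p is 0.0571 here, so that it could not pass. It was 9 to 30 with arrays left out in turn: 9, 12 and 11 without EV 1, EV 3 and EV 4, and 15, 13 and 21 without HOTAIR 1, HOTAIR 2 and HOTAIR 3. With a replicate block over arrays 1 to 3, in which EV 4 is dropped, 0 probes passed (1102 at an unadjusted p under 0.05), and the differences were -0.19 for PAX2, -0.12 for PAX8 and 0.21 for LHX1. The number of other kidney development genes passing, 0, became 1 with the unscaled deposited value table, 1 by the rank product and 0 to 1 with arrays left out in turn. The gene was SALL1 each time (without EV 4). The cause of these changes was not tested, and in some of these settings fewer samples or probes entered. HNF4A, WT1, EMX2, OSR1 and GATA3 were not well above background on all arrays of either group, which kept them out of the main fit. A change that stayed below background could not be detected for them. With no filter on dim probes they entered the fit, and 0 passed by limma.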
